A study of Mus musculus with 14 samples.

Results

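The genes described here are 10 genes of the major histocompatibility complex (MHC) and antigen presentation, followed in liver sinusoidal endothelial cells (LSECs) of mice after an acute injury. They were chosen by name, out of 54524 genes counted, and were found by matching the Ensembl identifiers to GENCODE vM21. H2-K1, H2-D1, B2m and Tap1 serve MHC class I presentation. H2-Aa, H2-Ab1, H2-Eb1, Cd74 and Ciita serve MHC class II presentation, and Cd274 encodes the inhibitory ligand PD-L1. All 10 passed the filter on low counts, as did 26626 genes in all.

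RNA was sequenced from LSECs of male Balb/c mice that the sample labels place at 10 to 12 weeks of age. The 4 healthy samples came from mice without any injection, so no group received the mineral oil vehicle alone. The other samples were taken 1 day (n = 2), 3 days (n = 4) and 7 days (n = 4) after a single intraperitoneal injection of carbon tetrachloride (CCl4), a solvent that injures hepatocytes, at 0.5 µl per g of body weight. LSECs were sorted as CD32 positive and negative for F4/80, UV autofluorescence and propidium iodide, and the study's methods add CD45 negativity, so the CD45 gene Ptprc is one that the sort was meant to leave out. All groups carried the same strain background, and the labels do not say whether a sample is 1 animal, so p-values measure the spread between these samples.

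On GRCm38, 6 of the 10 members lie in the MHC on chromosome 17, with H2-K1 at chr17:33996017-34000347 (minus strand), Tap1 at chr17:34187553-34197225 (plus), H2-Ab1 at chr17:34257689-34269419 (plus), H2-Aa at chr17:34282744-34287823 (minus), H2-Eb1 at chr17:34305867-34316674 (plus) and H2-D1 at chr17:35262730-35267499 (plus). B2m lies at chr2:122147686-122153083 (plus), Ciita at chr16:10480059-10528418 (plus), Cd74 at chr18:60803848-60812652 (plus) and Cd274 at chr19:29367455-29388095 (plus). Tap1 shares 212 exonic bases with Psmb9 on the opposite strand, Ciita shares 329 with Dexi on the opposite strand, and Cd74 holds the microRNA gene Mir5107. Whether counting used the strand is not stated, so reads in those bases cannot be assigned to 1 gene.

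LSECs line the hepatic sinusoid and take up and present antigen from portal blood. Class I molecules are built from a heavy chain such as those encoded by H2-K1 and H2-D1 and from the light chain beta-2-microglobulin (B2m), and they carry peptides that the TAP transporter, partly encoded by Tap1, pumps into the endoplasmic reticulum. Class II molecules are pairs of an alpha and a beta chain (H2-Aa with H2-Ab1, and the E alpha chain with H2-Eb1) that travel with the invariant chain Cd74, and their genes are switched on by the transactivator Ciita. Balb/c mice carry the H2d haplotype whereas the reference genome is that of C57BL/6, with H2b, so reads of these polymorphic chains and of their close paralogs, H2-D1 and the H2-Q genes among them, may be shared between genes or lost, and their counts are uncertain to that extent.

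The promoters are shown because class I and class II genes are known for short elements just upstream of their starts. RefSeq promoter sequence of build GRCm38.p6, from 250 bases before to 50 bases after the start, was at hand for 7 of the 10 members and for 27025 genes in all. The letters searched, on both strands and as H2-K1 and H2-Aa carry the longer ones, were GGGGATTCCCC (the kappa B site of class I enhancer A, in 0.0333% of these genes), AGTTTCACTTCT (a class I interferon response element, 0.037%), GCAACT (the start of the class II X box, 12.4%), TGACG (the core of the X2 box, 23.05%), CTGATTGG (the class II Y box, 4.70%) and CCAAT (41.1%), which is contained in reverse in the Y box. In the class I promoters below, capitals mark the kappa B, interferon, TGACG and CCAAT letters on either strand, and for H2-D1 only the 30 bases from the kappa B letters on are shown, with all but the last base of the interferon letters, since they fall within a first exon of GENCODE. In the class II promoters, capitals mark GCAACT and CTGATTGG, with TGACG marked on either strand.
H2-K1, chr17:34000348-34000547, minus strand: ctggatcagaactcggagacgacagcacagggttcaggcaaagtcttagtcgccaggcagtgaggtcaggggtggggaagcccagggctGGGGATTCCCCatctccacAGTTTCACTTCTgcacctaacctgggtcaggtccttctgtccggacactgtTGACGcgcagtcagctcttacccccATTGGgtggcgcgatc
H2-D1, chr17:35262923-35262952, plus strand: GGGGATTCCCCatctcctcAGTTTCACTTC
B2m, chr2:122147487-122147685, plus strand: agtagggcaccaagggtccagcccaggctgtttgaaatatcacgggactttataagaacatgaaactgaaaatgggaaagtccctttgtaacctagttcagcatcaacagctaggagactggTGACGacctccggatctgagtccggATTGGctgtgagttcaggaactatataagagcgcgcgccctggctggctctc
H2-Aa, chr17:34287824-34288023, minus strand: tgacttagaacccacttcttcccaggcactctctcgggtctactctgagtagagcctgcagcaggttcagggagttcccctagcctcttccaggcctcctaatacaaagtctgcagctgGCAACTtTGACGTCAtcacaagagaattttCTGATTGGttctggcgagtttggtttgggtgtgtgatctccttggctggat
H2-Eb1, chr17:34305667-34305866, plus strand: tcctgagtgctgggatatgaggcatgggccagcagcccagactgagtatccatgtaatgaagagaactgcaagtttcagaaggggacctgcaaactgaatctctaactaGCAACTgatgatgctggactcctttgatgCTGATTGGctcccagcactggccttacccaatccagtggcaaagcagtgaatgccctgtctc

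H2-K1 and H2-D1 both held the kappa B and the interferon letters, and B2m held neither in its window. H2-Aa and H2-Eb1 both held GCAACT and CTGATTGG in that order, close to the start, and H2-Aa also held TGACG on both strands in an overlapping pair. The windows of H2-K1 and H2-D1 also held CTGATTGG, in reverse and outside the bases printed. Tap1 held GCAACT along with TGACG and the Y box letters, and Cd274 held none of the letters searched. These matches describe the letters only, and no binding was measured.

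Total counts ran from 46401496 to 103912264 per sample. Values below are CPM, counts scaled to a common library size with TMM, and levels of different genes are compared only as CPM per kb of exon. Day 3 stood apart from the other groups in its spread: the correlation of log2 CPM between its samples was 0.875 to 0.963, against 0.942 or more in every other group, and its samples 3 and 4 held a count for 28203 and 22986 genes, against 34678 and 34768 in samples 1 and 2. Day 3 results are therefore also given for each of these pairs. LSEC markers, 10 genes in all, summed to between 9796 and 19678 CPM in all samples and none was at 0, so LSEC transcripts were present in every sample. Markers of other cells were present too: Ptprc was at 38.96, 109.6, 94.7 and 36.9 CPM in healthy samples 1 to 4, 177 and 128 at day 1, 269.6, 182, 63.9 and 46.7 at day 3 and 134, 154, 143 and 134 at day 7, and the 10 monocyte and neutrophil markers summed to 509–1374 CPM in healthy samples and 1354–12478 CPM after injury. Stellate cell markers, 8 genes, summed to 132–254 CPM in healthy samples, 92.7–102 at day 1, 589–1679 at day 3 and 342–5293 at day 7, with 7 of 8 called higher at days 3 and 7. The 5 cholangiocyte markers summed to 79.2–193 CPM in healthy samples, 229–301 at day 1, 321–1178 at day 3 and 598–5255 at day 7, with 1 of 5 called higher at days 3 and 7. Of all genes tested, 4.62% were called higher at day 3 and 2.19% at day 7. Hepatocyte markers, 8 genes, summed to 189–8341 CPM in healthy samples, 28.0–149 at day 1, 761–2729 at day 3 and 752–5874 at day 7. In day 3 sample 1 the LSEC markers summed to 10504 CPM and the monocyte and neutrophil markers to 12478 CPM. In day 7 sample 2 these sums were 9796 and 9584 CPM.

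In healthy LSECs, B2m had the highest level of the members, at 7037 ± 1503 CPM per kb (mean ± SD, n = 4), followed by H2-D1 at 1420.2 ± 60.6, Cd74 at 536 ± 274 and H2-K1 at 437 ± 64.8. The class II chains followed at 155 ± 74.7 for H2-Ab1, 125 ± 57.7 for H2-Eb1 and 110.4 ± 54.2 for H2-Aa, and then Tap1 at 6.07 ± 0.855, Cd274 at 4.87 ± 1.31 and Ciita at 0.978 ± 0.566 CPM per kb. Neighbours in this order whose healthy samples overlapped in level were Cd74 with H2-K1, H2-Ab1 with H2-Eb1, H2-Eb1 with H2-Aa, and Tap1 with Cd274. The class I heavy chains were even between healthy samples, with a highest sample 1.11 times the lowest for H2-D1 and 1.39 times for H2-K1, whereas Ciita differed 5.39-fold and the 3 class II chains 3.62-fold to 4.11-fold.

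The question put to the time course was how the presentation genes changed as the liver was injured and recovered. Transcripts of both classical heavy chains were lower at day 3, by 1.81-fold for H2-K1 and 1.79-fold for H2-D1, and these were the only members called in any comparison, where 7.19% of all genes were called at day 3 in either direction. Most of the related non-classical class I genes fell with them. The class II chains, Cd74 and Cd274 were called at no time point, with 95% intervals that spanned 0. Ciita was highest at day 7, where the change did not pass the threshold.

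H2-K1 encodes a classical heavy chain that presents peptide to CD8 T cells. Its level was 1279, 1186, 1553 and 1121 CPM in healthy samples 1 to 4, 1065 and 1057 at day 1, 814, 607, 639 and 771 at day 3 and 874, 915, 920.2 and 792 at day 7. Every injured sample was below every healthy sample. By single day, 17.9%, 6.84% and 12.1% of all genes lay below healthy without overlap at days 1, 3 and 7. The share that did so on all days was not computed. Every day 3 sample was also below every day 1 sample, as for 10.4% of all genes. At day 3 the log2 fold change against healthy was -0.86 (SE 0.16, adjusted p = 0.00803) by edgeR's quasi-likelihood test, with a 95% interval of -1.21 to -0.51.

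H2-D1, the other classical heavy chain in the reference, followed the same course. Its level was 3472, 3659.7, 3855 and 3664 CPM in healthy samples, 2673 and 3341 at day 1, 2528, 1971, 1909 and 1764 at day 3 and 2737, 2214, 2604 and 2707 at day 7. Again no injured sample reached a healthy one, a separation whose share over all genes was not computed. The log2 fold change at day 3 was -0.84 (SE 0.17, adjusted p = 0.0104), with a 95% interval of -1.20 to -0.48. The median of all genes tested was 0.18 on the log2 scale in this comparison. It depended on the fit, from -0.08 with day 3 samples 3 and 4 alone to 0.30 by DESeq2. Both genes lay below the median in every fit. In bulk RNA, fewer transcripts per LSEC and a smaller share of LSEC RNA in the sample cannot be told apart, and the summed LSEC markers themselves were at 10504–14435 CPM at day 3 and 16313–19678 CPM in healthy samples.

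**Figure D1:**
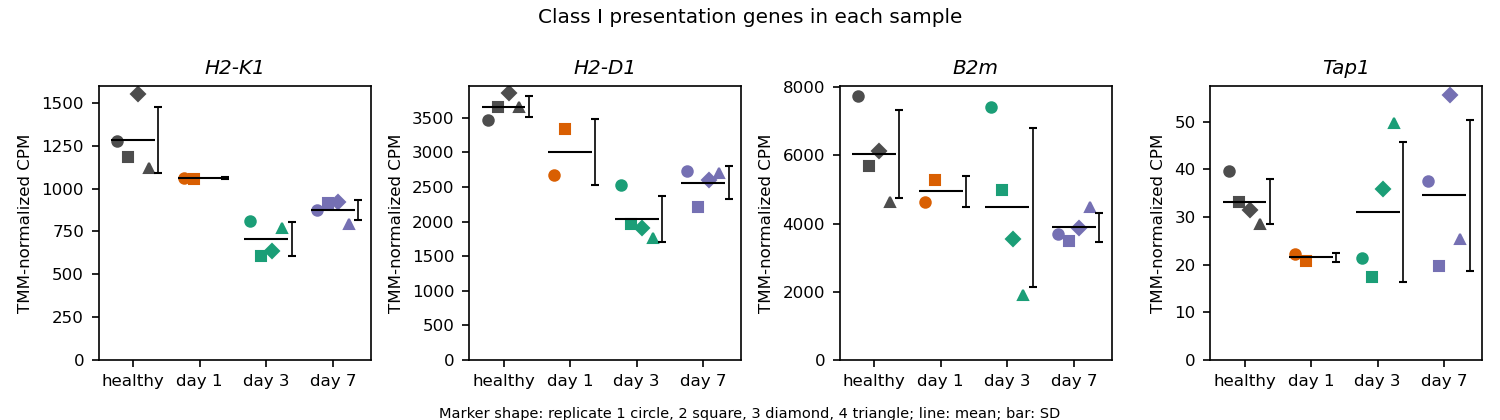
TMM-normalized CPM (vertical axes, from 0) of H2-K1, H2-D1, B2m and Tap1 in each of the 14 samples by group, with the mean as a line and the SD as a bar. The day 3 samples of H2-K1 and H2-D1 lie below all healthy samples, while those of B2m and Tap1 spread across the healthy range.

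The calls of both heavy chains at day 3 did not rest on 1 sample or on 1 of the pairs of day 3 samples. Across the 16 alternatives run, which included DESeq2, other scalings, leaving out each sample and using only day 3 samples 1 and 2 or only samples 3 and 4, H2-K1 ranged from -1.05 to -0.76 on the log2 scale and H2-D1 from -1.03 to -0.80, and both were called in 16 of 16. Of all genes tested, 2.58% were called lower at day 3 and 6.84% had every day 3 sample below every healthy sample, against 2 of 10 members in each case. The ratio of H2-K1 to H2-D1 in CPM per kb was 0.268–0.354 in healthy samples and 0.257–0.384 in injured ones. Ptprc, which split the day 3 samples into 269.6 and 182 against 63.9 and 46.7 CPM, had a different order from H2-K1, whose highest and lowest day 3 levels were both in the samples high in Ptprc. H2-D1 had the same order as Ptprc within day 3, and after group means were subtracted it correlated with B2m at 0.67 and with the class II chains at 0.51 to 0.53, against 0.06 and 0.02 to 0.09 for H2-K1. Summed stellate cell and cholangiocyte markers were higher at day 3 than in healthy samples. The median log2 fold change was 3.37 for the stellate markers but 0.13 for the 5 cholangiocyte markers, of which 2 were below 0. In day 3 samples 1 to 4 the stellate sums were 1532, 1333, 589 and 1679 CPM. The cholangiocyte sums were 1008, 1178, 321 and 359 CPM. At day 7, where both heavy chains were nearer to healthy, these sums were 342–5293 and 598–5255 CPM. The part of these cells and of leukocytes in the fall of both heavy chains was not tested.

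Before and after day 3 the same genes were nearer to healthy. At day 1 no member was called, where 4.06% of all genes were, and H2-K1 was at -0.28 (SE 0.20, adjusted p = 0.540) and H2-D1 at -0.28 (SE 0.21, adjusted p = 0.543) on the log2 scale. H2-K1, H2-D1 and Tap1 lay below healthy without overlap at day 1, as did 17.9% of all genes. At day 7 no member was called either, where 3.18% of genes were called, while H2-K1, H2-D1 and B2m lay below healthy without overlap, as did 12.1% of genes. H2-K1 was then at -0.55 (SE 0.16, adjusted p = 0.0776) and H2-D1 at -0.51 (SE 0.17, adjusted p = 0.106); DESeq2 and an edgeR model of only the samples compared called both. The 3 comparisons share the healthy samples. Set directly against day 1, day 3 gave -0.58 (SE 0.19, adjusted p = 0.147) for H2-K1 and -0.56 (SE 0.20, adjusted p = 0.187) for H2-D1, with 2.54% of genes called and no member among them, and day 7 against day 3 gave 0.31 (SE 0.16, adjusted p = 0.330) and 0.33 (SE 0.17, adjusted p = 0.314), with 1.77% called and no member. DESeq2 called both heavy chains in day 3 against day 1.

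B2m, the light chain shared by classical and non-classical class I molecules, was not called at day 3, and a difference from the heavy chains was not tested. It was at 7749, 5688, 6131 and 4640.0 CPM in healthy samples, 4626 and 5275 at day 1, 7433, 4997, 3557 and 1916 at day 3 and 3701, 3495, 3881 and 4492 at day 7. Day 3 ran from near the highest healthy sample to far below the lowest, in the same order as Ptprc, and day 7 was below healthy without overlap. The log2 fold changes were -0.44 (SE 0.32, adjusted p = 0.477) at day 3 and -0.64 (SE 0.32, adjusted p = 0.274) at day 7, neither called. From day 3 samples 3 and 4 alone, B2m was called lower at -1.17 (adjusted p = 0.0240 by edgeR). The ratio of B2m to the sum of the heavy chains, in CPM per kb, was 2.99–5.06 in healthy samples and 2.35–6.88 at day 3.

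Tap1 is a subunit of the peptide transporter. It was at 39.7, 33.2, 31.5 and 28.6 CPM in healthy samples, 22.2 and 20.8 at day 1, 21.5, 17.3, 35.99 and 49.7 at day 3 and 37.6, 19.6, 55.6 and 25.5 at day 7. Both day 1 samples were below all healthy ones, and days 3 and 7 spread to either side of the healthy range. Log2 fold changes were -0.63 (SE 0.44, adjusted p = 0.513), -0.10 (SE 0.35, adjusted p = 0.906) and 0.06 (SE 0.35, adjusted p = 0.952) at days 1, 3 and 7; the day 1 value was called only in the model of those groups alone (adjusted p = 0.0410).

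The non-classical and class I-like heavy chains, 16 genes that include the H2-T, H2-Q and H2-M series, Cd1d1 (lipid presentation), Mr1 (presentation of microbial metabolites), Hfe (iron regulation) and Fcgrt (the neonatal Fc receptor), fell along with the classical chains. At day 3, 12 of 16 were called lower and none higher, all 16 log2 fold changes were below 0 and their median was -0.77, against 2.58% of genes called lower and a median of 0.18 over all genes. H2-Q1, H2-Q2, H2-Q4, H2-Q6 and H2-Q7 were among those called. Their reads may be shared with H2-D1, so these calls may not be independent of it. Of the called genes, H2-T24 had the largest change: it was at 65.4, 82.2, 91.2 and 83.9 CPM in healthy samples and 25.4, 18.1, 15.2 and 17.4 at day 3, with no overlap, and fell by 2.09 on the log2 scale (SE 0.20, adjusted p = 0.000331). H2-T23, which encodes the Qa-1 chain seen by NK receptors, fell by 1.19 on the log2 scale (SE 0.26, adjusted p = 0.0163), Mr1 by 1.16 on the log2 scale (SE 0.20, adjusted p = 0.00524) and Cd1d1 by 1.05 on the log2 scale (SE 0.30, adjusted p = 0.0475). H2-M2, at most 1.05 CPM in any healthy sample and 0.194 at day 3, had a larger estimate that was not called, -2.81 (SE 0.81, adjusted p = 0.0538). The count was 11 from day 3 samples 1 and 2 alone and 12 from samples 3 and 4 alone, but 8 without healthy sample 1, 6 without healthy sample 2 or 3, and 7 without day 3 sample 2. The Cd1d1 call was lost in 6 of the 8 fits that left out a sample, and the calls of Cd1d1 and Hfe were lost from either pair of day 3 samples alone.

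At day 1, 4 of the 16 were called lower, all 16 were below 0 with a median of -0.50, and 1.64% of all genes were called lower. Cd1d1 fell by 1.96 on the log2 scale (SE 0.39, adjusted p = 0.0125), H2-T24 by 1.64 on the log2 scale (SE 0.25, adjusted p = 0.00285), Mr1 by 1.32 on the log2 scale (SE 0.26, adjusted p = 0.0105) and Hfe by 1.05 on the log2 scale (SE 0.26, adjusted p = 0.0415). With only 2 day 1 samples, the count was 0 without sample 1 and 2 without sample 2, and Hfe was called in none of the 6 fits that left out a sample. At day 7 only H2-Q6 was called, at -0.70 (SE 0.18, adjusted p = 0.0485), with 0.992% of genes called lower, and its call was lost without any 1 of 7 of the 8 samples. The median of the 16 was -0.59 at day 7. H2-T24 was called higher at day 7 than at day 3, by 1.41 (SE 0.20, adjusted p = 0.00714), where 0.413% of genes were called higher, and it was called in all 8 fits that left out a sample but not in the model of only the groups compared. Of the 12 genes of this list with a RefSeq promoter entry, H2-Q6 held the kappa B letters and H2-Q4, H2-Q6, H2-Q7 and H2-Q10 the interferon letters that H2-K1 and H2-D1 carry, while the window of H2-T23 held neither.

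**Figure D2:**
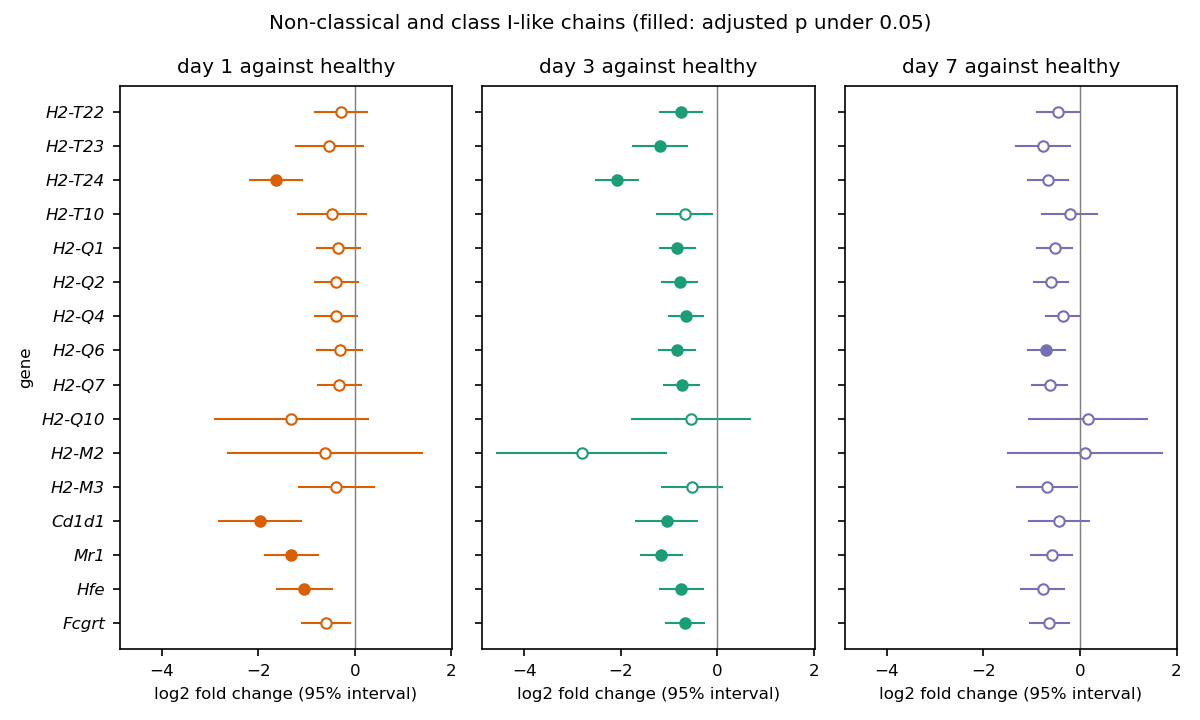
Log2 fold change (horizontal axes) with 95% interval of 16 non-classical and class I-like chain genes against healthy LSECs at days 1, 3 and 7. Filled points passed an adjusted p under 0.05 by edgeR: 4 genes at day 1, 12 at day 3 and 1 at day 7, all of them lower.

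The genes that supply and load class I peptides, 12 in all, had a median log2 fold change of -0.56, -0.34 and -0.54 at days 1, 3 and 7, with fewer calls than the non-classical chains at days 1 and 3. Called lower were Psmb9 (an immunoproteasome subunit) and Tapbpl (a peptide editor) at day 1, Tapbpl and Tap2 (the partner of Tap1) at day 3 and Tapbpl at day 7, and none was called higher, where 1.64%, 2.58% and 0.992% of all genes were called lower. Tapbpl was at 46.9, 49.7, 53.8 and 40.04 CPM in healthy samples, 21.3 and 29.9 at day 1, 26.5, 17.9, 20.8 and 19.5 at day 3 and 32.3, 24.95, 23.5 and 29.4 at day 7. No injured sample reached a healthy one, and the share of all genes so separated was not computed. Tapbpl fell by 1.17 on the log2 scale (SE 0.19, adjusted p = 0.00379) at day 3, a call kept in all 8 fits that left out a sample, and its calls at days 1 and 7 were lost in 6 of 6 and 6 of 8 such fits. Tap2 fell by 0.79 on the log2 scale (SE 0.18, adjusted p = 0.0192) at day 3, and that call was lost without healthy sample 3 or day 3 sample 2 and from day 3 samples 3 and 4 alone.

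Psmb9 was at 100.5, 78.3, 84.9 and 68.8 CPM in healthy samples, 25.5 and 33.3 at day 1 and 117, 75.6, 74.1 and 42.5 at day 3, and was 2.83-fold lower at day 1 (adjusted p = 0.0223). It was higher at day 3 than at day 1 by 1.40 (SE 0.33, adjusted p = 0.0439), where 1.57% of genes were called higher. Irf1, the interferon-induced factor that acts on class I promoters, was the only gene called among 15 transactivators and interferon gamma signalling genes. It was called lower at day 1, as were 1.64% of all genes. None of the list was called at days 3 and 7, against 7.19% and 3.18% of all genes in either direction. Irf1 was at 635, 511, 402 and 569 CPM in healthy samples and 108 and 135 at day 1, and fell by 2.12 on the log2 scale (SE 0.42, adjusted p = 0.0112). Both day 1 calls were lost without either day 1 sample, and that of Psmb9 also without healthy sample 1. Nlrc5, the class I transactivator, was at -0.03, 0.04 and -0.00 on the log2 scale at days 1, 3 and 7, none called.

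**Figure D3:**
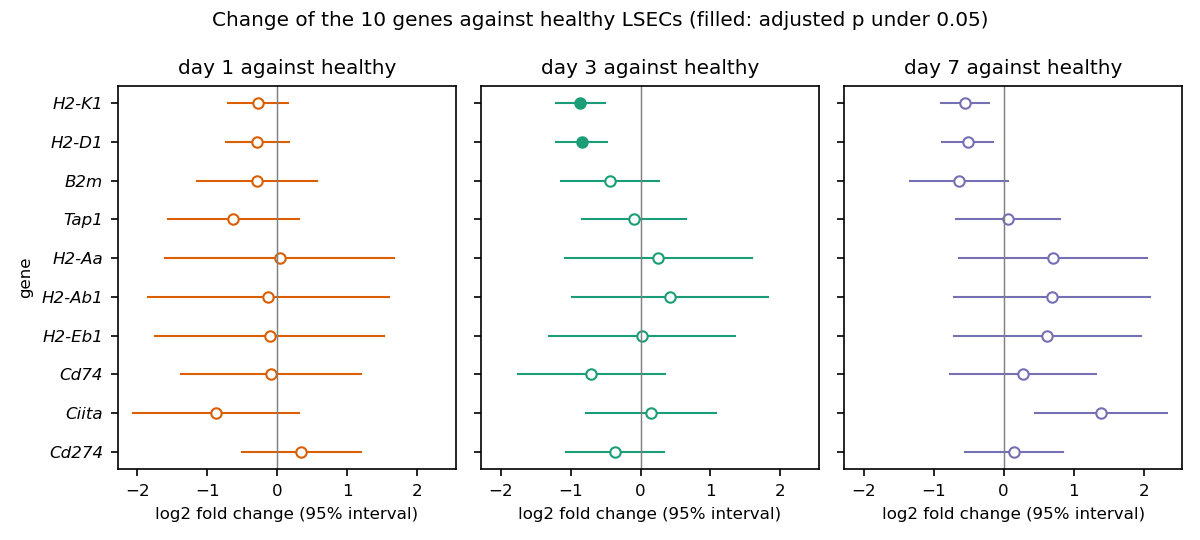
Log2 fold change (horizontal axes) with 95% interval of the 10 genes against healthy LSECs at days 1, 3 and 7. Filled points passed an adjusted p under 0.05 by edgeR, which H2-K1 and H2-D1 did at day 3 only; the intervals of the class II chains are the widest.

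Class II chains were called in no comparison and spread widely within groups. H2-Ab1, the A beta chain, was at 354, 576, 517 and 149 CPM in healthy samples 1 to 4, 456 and 274 at day 1, 1093, 782, 201 and 61.8 at day 3 and 552, 598, 570.3 and 854 at day 7. Day 3 held both the highest and the lowest sample of the series, 17.7-fold apart, and the healthy samples 3.88-fold apart. Log2 fold changes were -0.13 (SE 0.80, adjusted p = 0.975) at day 1, 0.42 (SE 0.65, adjusted p = 0.752) at day 3 and 0.69 (SE 0.65, adjusted p = 0.581) at day 7. The 95% intervals, -1.85 to 1.59, -0.98 to 1.82 and -0.71 to 2.09, all spanned 0, so no change was detectable at this spread.

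H2-Aa, the A alpha chain, was at 375, 612, 540.3 and 149 CPM in healthy samples, 544 and 313 at day 1, 1062, 639, 226 and 70.1 at day 3 and 605, 594, 627 and 913 at day 7. H2-Eb1, the E beta chain, was at 216, 352, 306 and 97.5 CPM in healthy samples, 274 and 176 at day 1, 503, 328, 128 and 27.6 at day 3 and 309, 335, 339 and 511 at day 7. Both repeated the order of H2-Ab1 within day 3 and the low value of healthy sample 4. Against healthy, H2-Aa was at 0.03, 0.25 and 0.71 on the log2 scale at days 1, 3 and 7 (adjusted p = 0.997, 0.852 and 0.548) and H2-Eb1 at -0.11, 0.02 and 0.62 (adjusted p = 0.978, 0.988 and 0.606).

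The chains kept close to 1 proportion in every sample. The ratio of H2-Aa to H2-Ab1 in CPM per kb was 0.553–0.807 over all samples and that of H2-Eb1 to H2-Ab1 0.554–0.867, while their own levels spanned 15.2-fold, 18.5-fold and 17.7-fold for H2-Aa, H2-Eb1 and H2-Ab1. Across the 14 samples, log2 CPM of these chains correlated pairwise with Pearson's r of 0.98 to 0.99, a description of samples that share libraries and depth. The E alpha gene, annotated as the pseudogene H2-Ea-ps because C57BL/6 lacks a working copy, was read in every sample, at 191, 262, 206 and 67.98 CPM in healthy samples and 460.5, 302, 70.9 and 19.2 at day 3, and so followed the same order within day 3.

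Cd74, the invariant chain, was at 589, 1337, 1250.4 and 427 CPM in healthy samples, 1126 and 561 at day 1, 903, 660.2, 475 and 176 at day 3 and 535, 1219, 1334 and 1273 at day 7. It was low in healthy sample 4 and day 3 sample 4, like the chains, but also in day 7 sample 1, where H2-Ab1 was at 552 CPM, close to samples 2 and 3 of that group. Its ratio to H2-Ab1 in CPM per kb was 1.26–4.37 at day 3 and 2.55–4.40 in healthy samples, and its correlation with the chains was 0.83 to 0.88. Log2 fold changes were -0.10 (SE 0.60, adjusted p = 0.975), -0.70 (SE 0.49, adjusted p = 0.443) and 0.28 (SE 0.49, adjusted p = 0.791) at days 1, 3 and 7.

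Ciita, the transactivator on which class II transcription depends, was the lowest member in level and was at 7.32, 13.2, 14.2 and 2.63 CPM in healthy samples, 6.94 and 3.21 at day 1, 10.2, 14.5, 8.31 and 8.44 at day 3 and 17.1, 25.5, 23.8 and 31.1 at day 7. Every day 7 sample was above every sample of the other groups. Against healthy alone 8.72% of genes lay above without overlap, and the share above all other groups was not computed. The log2 fold change at day 7 was 1.39 (SE 0.44, adjusted p = 0.0967) against healthy, with a 95% interval of 0.44 to 2.33, and 1.23 (SE 0.44, adjusted p = 0.175) against day 3, where 3.76% of genes lay above without overlap. The edgeR test called neither, and DESeq2 called the first (adjusted p = 0.0229). Within day 3, Ciita was higher in samples 1 and 2 than in samples 3 and 4, as the chains were, but over a narrower range.

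**Figure D4:**
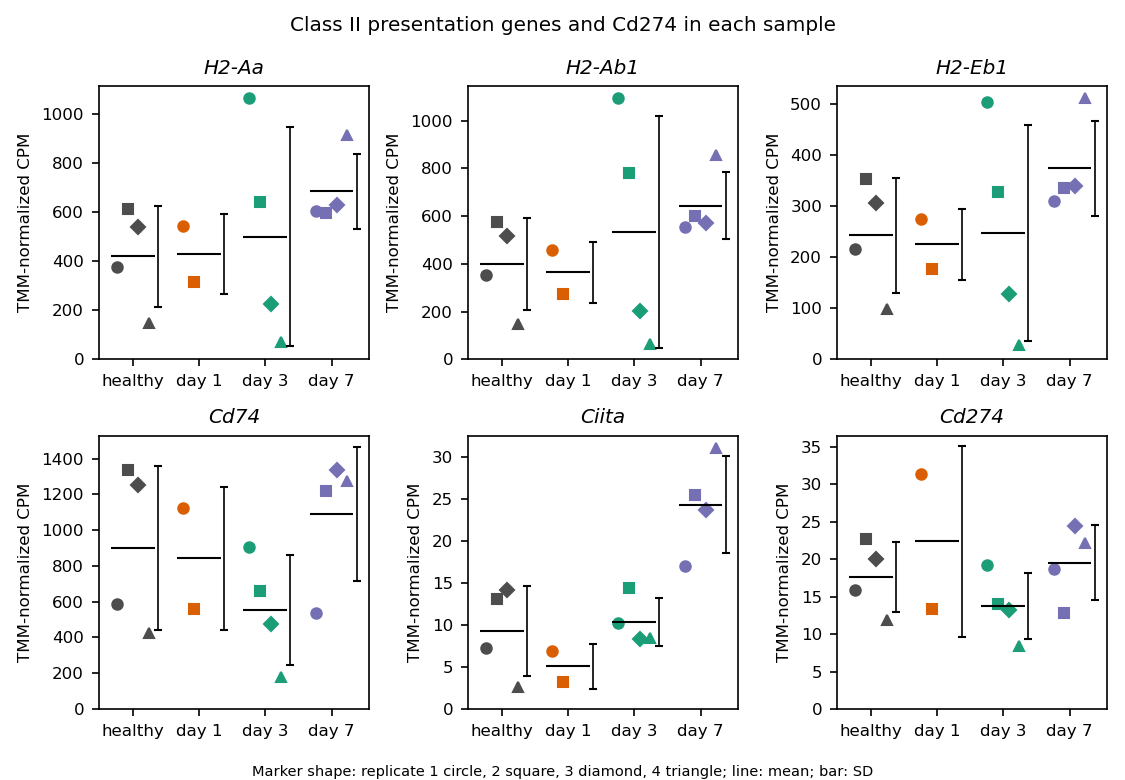
TMM-normalized CPM (vertical axes, from 0) of H2-Aa, H2-Ab1, H2-Eb1, Cd74, Ciita and Cd274 in each of the 14 samples by group, with the mean as a line and the SD as a bar. Day 3 samples 1 and 2 are high and samples 3 and 4 low for the 3 class II chains, and the Ciita samples of day 7 lie above those of the other groups.

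Over the 14 samples, the level of H2-Ab1 moved with the leukocyte gene Ptprc, though not within every group. At day 7, where Ptprc was at 134 to 154 CPM, sample 4 had the lowest Ptprc and the highest H2-Ab1, 854 CPM. Of 6 relations of H2-Ab1 computed over the 14 samples on log2 values, with permutation tests of 100000 resamples, that with Ptprc was the strongest (Pearson's r = 0.789, adjusted p = 0.00402, permutation; Spearman's rho = 0.763, adjusted p = 0.0143, permutation). It was 0.860 without the 2 samples farthest in Ptprc and 0.915 after group means were subtracted. For the summed monocyte and neutrophil markers r was 0.610 (adjusted p = 0.0258, permutation; rho 0.640, adjusted p = 0.0330), 0.577 without the 2 farthest samples and 0.841 within groups. For Ciita r was 0.598 (adjusted p = 0.0282, permutation; rho 0.719, adjusted p = 0.0154), 0.506 without the 2 farthest samples and 0.607 within groups.

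The relations with B cell and dendritic cell markers rested on few samples. For B cell markers r was 0.735 (adjusted p = 0.0121, permutation; rho 0.600, adjusted p = 0.0378), and it was 0.233 without day 3 sample 4 and healthy sample 4. For dendritic cell markers r was 0.642 (adjusted p = 0.0258, permutation; rho 0.393, adjusted p = 0.163), and it was 0.315 without day 3 samples 3 and 4. Within groups they were 0.771 and 0.798. Kupffer cell markers gave r = 0.472 (adjusted p = 0.0857, permutation; rho 0.495, adjusted p = 0.0907), 0.364 without the 2 farthest samples and 0.510 within groups. None of the 8 B cell, 9 dendritic cell, 8 Kupffer cell or 10 monocyte and neutrophil markers was at 0 in every sample of a group, and their sums ran over 105–515, 125–241, 301–2063 and 509–12478 CPM. No relation was computed for the 7 T and NK cell markers, so whether they followed H2-Ab1 more closely than Ptprc did was not tested. Their sums were 122, 80.95, 14.985 and 8.206 CPM in day 3 samples 1 to 4, the same order as H2-Ab1. Among the healthy and among the day 7 samples their order differed from that of H2-Ab1. The part of all these cells in the class II levels was not tested.

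**Figure D5:**
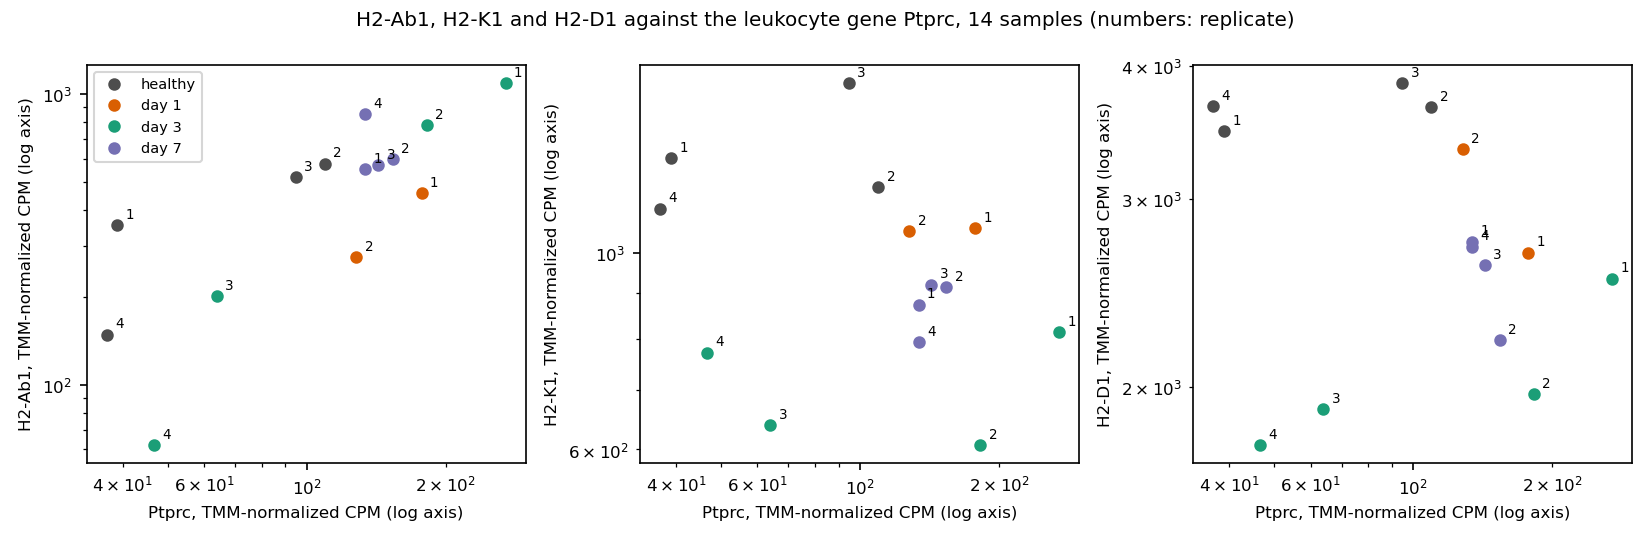
H2-Ab1 (left), H2-K1 (middle) and H2-D1 (right) against Ptprc, in TMM-normalized CPM on log axes, for 14 samples coloured by group and numbered by replicate. H2-Ab1 is higher where Ptprc is higher among the healthy and among the day 3 samples, while within day 3 H2-D1 follows the order of Ptprc, from 1764 to 2528 CPM, and H2-K1, between 607 and 814 CPM, does not.

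Each pair of day 3 samples gave its own direction for class II. From samples 3 and 4 alone, the log2 fold change against healthy was -1.62 for H2-Ab1 and -1.52 for H2-Aa (adjusted p = 0.0901 and 0.112 by edgeR), from samples 1 and 2 alone it was 1.11 and 0.90 (adjusted p = 0.0770 and 0.168), and the 4 samples together gave 0.42 and 0.25, none of them called. Healthy sample 4, lowest of its group in all 3 chains, in Cd74 and in Ciita, also had the highest summed hepatocyte markers of the series, 8341 CPM against 189–359 CPM in the other healthy samples.

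The class II list beyond the members, 12 genes for loading, lysosomal processing and turnover, gave 0 calls at day 1, Ifi30 (the lysosomal thiol reductase) at day 3 and Ctss (cathepsin S, which trims the invariant chain) at day 7, both higher. Ifi30 was at 1.73 (SE 0.49, adjusted p = 0.0488) with overlapping samples, and Ctss at 2.29 (SE 0.58, adjusted p = 0.0494) without overlap. Each call was near the threshold, with 4.62% of genes called higher at day 3 and 2.19% at day 7. That of Ifi30 was lost in 6 of 8 and that of Ctss in 7 of 8 fits that left out a sample, and that of Ifi30 also from day 3 samples 3 and 4 alone. H2-DMa and H2-DMb1, the peptide exchange chains, were at 0.78 and 0.16 at day 3 and 1.09 and 0.60 at day 7 on the log2 scale, and the list's median was -0.24, 0.32 and 0.62 at days 1, 3 and 7, against -0.03, 0.18 and 0.02 over all genes.

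Cd274, which encodes PD-L1, restrains T cells that meet antigen on LSECs. It was at 15.9, 22.7, 19.98 and 11.9 CPM in healthy samples, 31.4 and 13.4 at day 1, 19.3, 13.9998, 13.3 and 8.44 at day 3 and 18.7, 12.9, 24.5 and 22.2 at day 7. The groups overlapped in every comparison with healthy, and the log2 fold changes were 0.35 (SE 0.39, adjusted p = 0.743), -0.36 (SE 0.33, adjusted p = 0.571) and 0.15 (SE 0.33, adjusted p = 0.835). The 95% interval at day 3, -1.06 to 0.34, bounds the change at this spread. Of 14 other costimulatory and inhibitory ligands, Tnfsf9 (4-1BB ligand, 2.08 (SE 0.42, adjusted p = 0.0117)) and Cd276 (B7-H3, 2.62 (SE 0.69, adjusted p = 0.0360)) were called higher at day 3, with no gene of the list called at days 1 and 7. Of all genes, 4.62% were called higher at day 3, and 4.06% and 3.18% were called in either direction at days 1 and 7. Tnfsf9 kept its call in all 8 fits that left out a sample and Cd276 in 2 of 8, but Tnfsf9 was not called from day 3 samples 3 and 4 alone, nor Cd276 from samples 1 and 2 alone. Tnfsf9 was lower at day 7 than at day 3, by 1.80 on the log2 scale (SE 0.42, adjusted p = 0.0476), where 1.36% of genes were called lower, a call kept in 1 of 8 such fits.

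The genes most like the members were found by Pearson's r between log2 CPM and the mean standardized profile of the class over 14 samples, which share libraries and depth. For the class II profile (H2-Aa, H2-Ab1, H2-Eb1 and Cd74) they were Osbpl3 (r = 0.967), Pak1 (0.958), Il1rl1 (0.956), H2-DMb1 (0.956) and Klra3 (0.949), of which H2-DMb1 lies in the class II region of chromosome 17. For the class I profile (H2-K1, H2-D1, B2m and Tap1) they were Mfsd8 (0.918), the pseudogene H2-T-ps (0.916), Gm10499 (0.911), Wls (0.910) and Selenop (0.907), of which H2-T-ps and Gm10499 lie in the MHC on chromosome 17. After group means were subtracted, r was 0.94 to 0.97 for the genes of the class II profile and 0.49 to 0.65 for those of class I. Within the class I profile H2-K1 and H2-D1 correlated at 0.88 over all samples and at 0.20 after group means were subtracted, whereas B2m correlated with the class II chains at 0.58 to 0.63 and at 0.88 to 0.90 after it. Tap1 correlated with H2-K1, H2-D1 and B2m at 0.14, 0.01 and -0.36 over all samples, so the class I profile averages genes that did not move together.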

How the data were processed

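LSEC RNA from 14 samples in 4 groups was analysed, with groups and replicate numbers taken from the sample labels. The authors mapped reads with STAR to GRCm38, used StringTie, and deposited raw counts, as whole numbers, for each Ensembl gene, in 1 column per sample with no column left unused. Tool versions, the annotation release and the use of strand in counting are not given in the sources used here. Gene names, positions and exon lengths came from GENCODE vM21, which held 54495 of the 54524 identifiers, and promoters from RefSeq on GRCm38.p6.

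Counts were filtered with filterByExpr (minimum count 10, minimum total 15, by group), scaled with TMM and tested with edgeR 4.0.16 (R 4.3.3), by the quasi-likelihood test in 1 model of 4 group means over all 14 samples, two-sided, with Benjamini-Hochberg adjustment over 26626 genes and a threshold of 0.05. The SE of a change is its size over the root of edgeR's F, and log2 CPM used a prior count of 2. Precision follows from depth: 3 counts, a floor for counting error only, correspond to under 0.1 CPM in every sample. Named beside the 10 members were up to 4 called genes per list and comparison with healthy, by size of change, and the 5 genes most like each class. The members and lists were chosen with earlier results of these data known.

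Alternatives were DESeq2 1.42.0, RLE size factors, library size only, no low-count filter, the replicate number as a block, a model of only the samples compared, leaving out each sample in turn and, chosen after seeing the data, each pair of day 3 samples. The edgeR and DESeq2 steps were tested on simulated data.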

Additional observations from a re-analysis of the deposited data

Results flagged for a closer look

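Among 30 groups of 4 samples checked, Dixon's test at its 95% value singled out 4, where chance alone gives about 1 in 20 if the checks are independent. In day 7 sample 4 the class II chains stood above the other day 7 samples, with 913 CPM of H2-Aa, 854 CPM of H2-Ab1 and 511 CPM of H2-Eb1. In day 7 sample 1, Cd74 stood below the other day 7 samples, at 535 CPM. The class II chains moved together across samples, so their flags are not independent, and the 4 cannot be set against that rate.

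The change against healthy differed between time points for 3 genes of the lists, by edgeR's test of the days against each other. Psmb9 was higher at day 3 than at day 1 by 1.40 on the log2 scale (adjusted p = 0.0439), a call lost in 5 of 6 fits that left out a sample. H2-T24 was higher at day 7 than at day 3 by 1.41 (adjusted p = 0.00714), a call lost in the model of only the groups compared. Tnfsf9 was at -1.80 at day 7 against day 3 (adjusted p = 0.0476), a call lost in 7 of 8 fits that left out a sample. No member differed between days by this test.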

How the results depend on the processing

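The day 3 fall of H2-K1 and H2-D1 kept its direction and its call in all 16 alternatives each, with adjusted p from 7.12e-06 to 0.0303 and from 3.62e-06 to 0.0341. Leaving out any 1 sample gave 2 called members at day 3 and 0 in the other comparisons. With 2 day 1 samples and class II levels that spread within groups, small changes were beyond reach. The labels' replicate numbers do not pair the samples, since deviations of same-numbered samples correlated between -0.232 and 0.0962, so the replicate block is reported here only. Of all genes, the block called 594, 1385 and 435 at days 1, 3 and 7, against 1080, 1915 and 846 without it.

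Members called otherwise: the model of only the samples compared called 1 at day 1 (Tap1) and 3 at day 7 (H2-K1, H2-D1 and B2m), DESeq2 called 3 at day 7 (H2-K1, H2-D1 and Ciita) and 2 in day 3 against day 1, and day 3 samples 3 and 4 alone called 1 in that comparison (H2-D1).

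Counts over the lists were less stable. For non-classical chains at day 7, DESeq2 called 6 and the model of only the samples compared 7, against 0 with RLE, library size only, no filter or the block; leaving out a sample gave 0 to 3 of these genes at day 1, between 6 and 12 at day 3, and 0 to 6 on day 7. For peptide supply, library size only, no filter and the block gave 1 at day 1; library size only, the model of only the samples compared and day 3 samples 3 and 4 gave 1 at day 3 and samples 1 and 2 gave 8; library size only and the block gave 0 at day 7 and the model of only the samples compared 6; leaving out a sample gave 0 to 1, 1 to 4 and 0 to 1 at days 1, 3 and 7. For class II loading, DESeq2 gave 2 at days 3 and 7; RLE, no filter and the block gave 0 at both; the model of only the samples compared gave 0 at day 3 and 2 at day 7, and day 3 samples 1 and 2 gave 5; leaving out a sample gave 0 to 3 at day 3 and 0 to 1 at day 7. For transactivators, the model of only the samples compared gave 2 at day 1 and day 3 samples 1 and 2 gave 2; leaving out a sample gave 0 to 1 at each day. For costimulatory ligands, DESeq2, RLE and the model of only the samples compared gave 1 at day 1; no filter, that model and day 3 samples 3 and 4 gave 1 at day 3 and samples 1 and 2 gave 5; DESeq2 and that model gave 1 at day 7; leaving out a sample gave 1 to 2 at day 3 and 0 to 1 at day 7. The cause was not tested.

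Uncalled members that changed sign did so as follows, on the log2 scale. At day 1, H2-Aa was -0.0155 with library size only, -0.0363 without the filter and -0.40 with the block. At day 3, H2-Aa was -0.0195 and H2-Eb1 -0.23 with the block, H2-Eb1 -0.0499 with library size only, -0.18 without the filter and -0.0917 in the model of only the samples compared, and Ciita -0.0491 without the filter. From day 3 samples 3 and 4, Tap1 was 0.35, H2-Aa -1.52, H2-Ab1 -1.62, H2-Eb1 -1.66 and Ciita -0.17. At day 7, Tap1 was -0.0633 without the filter and -0.0466 with the block. Day 3 against day 1 gave 0.23 for B2m and -0.25 for Tap1 from samples 1 and 2, and -1.54 for H2-Aa, -1.48 for H2-Ab1 and -1.54 for H2-Eb1 from samples 3 and 4, with H2-Eb1 at -0.0004 without the filter. Day 7 against day 3 gave 0.55 for B2m and -0.27 for Tap1 from samples 3 and 4, and -0.19 for H2-Aa, -0.42 for H2-Ab1 and -0.0278 for H2-Eb1 from samples 1 and 2.

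Leaving out 1 sample, values ranged at day 1 from -0.45 to 0.36 for H2-Aa, -0.56 to 0.18 for H2-Ab1, -0.49 to 0.16 for H2-Eb1, -0.71 to 0.30 for Cd74 and -0.43 to 0.81 for Cd274, at day 3 from -0.48 to 0.13 for Tap1, -0.53 to 0.51 for H2-Aa, -0.31 to 0.68 for H2-Ab1, -0.70 to 0.29 for H2-Eb1 and -0.29 to 0.43 for Ciita, and at day 7 from -0.23 to 0.25 for Tap1. Day 3 against day 1 ranged from -0.57 to 0.0265 for B2m, -0.55 to 0.54 for H2-Aa, -0.17 to 0.83 for H2-Ab1 and -0.57 to 0.42 for H2-Eb1, and day 7 against day 3 from -0.35 to 0.26 for B2m and -0.0674 to 0.53 for Tap1.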
